A study of Mus musculus domesticus and Mus musculus domesticus x Mus musculus castaneus and Mus musculus castaneus with 27 samples.

Results

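The enzymes that write and remove DNA methylation were followed in mouse pluripotent stem cells (PSC) and in motor neurons (MN) differentiated from such cells. They were chosen by gene symbol: the maintenance pair Dnmt1 and Uhrf1, the de novo group Dnmt3a, Dnmt3b and Dnmt3l, and the TET oxygenases Tet1, Tet2 and Tet3. Of these 8 genes, 7 were measured among the 27071 gene identifiers of the count table. Dnmt3b was not analysed here. From stem cells to motor neurons, transcripts of the maintenance pair, of Dnmt3l, Tet1 and Tet2 fell and those of Tet3 rose. Dnmt3a fell in 2 genotypes and rose in a hybrid genotype whose stem cells held little of it.

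Methyl groups on cytosine in CpG pairs are copied onto the new strand after replication by Dnmt1, which Uhrf1 recruits to hemimethylated DNA. Dnmt3a places methyl groups on unmodified DNA, and Dnmt3l, which has no catalytic activity of its own, stimulates it. The TET enzymes oxidise 5-methylcytosine, the first step of its active removal, and in the brain their product 5-hydroxymethylcytosine is abundant. Mouse stem cells are known for high Tet1 and Dnmt3l, and neurons for methylation by Dnmt3a outside CpG pairs.

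The series measured polyadenylated RNA of lines of 3 inbred strains, which are C57BL/6J (here BL6), CAST/EiJ (here CAST) and 129S6/SvEv (here 129), and of F1 hybrids between the latter pair, written CAS129 and 129CAS. The stem cell groups were BL6 PSC, CAST PSC and CAS129 PSC with 2 libraries each. The motor neuron groups were BL6 MN with 7 libraries, CAST MN with 1, 129 MN with 2, CAS129 MN with 3 and 129CAS MN with 1. No treatment, age or differentiation time is given for these libraries, nor whether a genotype is represented by more than 1 line, and PSC of 129 and 129CAS were not analysed here.

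Members of one family share only short runs of identical coding sequence, which bears on how far their reads can be told apart. The longest run of identical bases between the coding sequences of Dnmt3a and Dnmt3l was 15 bases, and that between Tet1 and Tet3, whose opposite behaviour is described below, was 17 bases. Both are shown here from the GENCODE M21 transcripts, 5′ to 3′ on the coding strand, with the shared run in capitals and 10 bases on either side.
Dnmt3a: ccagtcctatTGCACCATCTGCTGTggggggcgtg
Dnmt3l: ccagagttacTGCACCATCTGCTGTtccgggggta
Tet1: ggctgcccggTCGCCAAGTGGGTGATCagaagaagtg
Tet3: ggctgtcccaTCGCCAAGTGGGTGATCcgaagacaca
The runs start at coding base 1597 of Dnmt3a, 388 of Dnmt3l, 4295 of Tet1 and 2693 of Tet3, counted from the first base of the start codon. Of the windows of 50 bases in each representative transcript, none in Dnmt1, Dnmt3a, Dnmt3l, Tet2 or Tet3 was found in a transcript of another gene, and 0.01% were in Tet1. For Uhrf1 the share was 18.91%, all with the pseudogenes Gm15953 and Gm5648, so its counts are uncertain to the extent that reads were shared between them.

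Library totals ran from 4497912 to 13620056 counts in PSC and from 5612575 to 44572794 counts in MN, with the 2 libraries of 129 MN and the 129CAS MN library the deepest. The summed level of 16 stem cell markers in CPM, a gene's counts relative to the scaled library total, was 4980 to 6920 CPM in PSC libraries and 89.7 to 244 CPM in MN libraries other than CAS129 MN, where it was 714 to 1790 CPM. The summed level of 10 motor neuron markers was 478 to 2280 CPM in MN and 13.8 to 49.6 CPM in PSC; within it the CPM of Chat, which makes acetylcholine, was 1.64 to 14.9 in MN libraries. Mesenchyme and fibroblast markers, also 10 genes and all detected, summed to 6530 to 34100 CPM in MN and 254 to 3100 CPM in PSC. Of 6271 genes at 10 CPM or more in all 14 BL6, CAST and 129 libraries, 262 (4.18%) had 0 counts in all 6 hybrid libraries. None of the 7 members was among them, but this count does not show a partial loss of hybrid counts, which was not tested.

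Dnmt1 (chromosome 9, 20907209 to 20959888, minus strand, GRCm38) is the maintenance methyltransferase. It was at 454 and 481 CPM in BL6 PSC, 649 and 597 CPM in CAST PSC, and 716 and 476 CPM in CAS129 PSC. Across BL6 MN it ran from 51.5 CPM through a median of 73.3 to 84.1 CPM, and it was 93.4 CPM in CAST MN, 85.4 and 90.0 CPM in 129 MN, 169, 173 and 113 CPM in CAS129 MN, and 90.6 CPM in 129CAS MN. Every PSC library was above every MN library, and the 3 CAS129 MN libraries were above the other MN libraries. Across the genotypes with both cell types (17 libraries, genotype fitted as a term) Dnmt1 was 6.60-fold lower in MN (log2 fold change -2.72 ± 0.17 SE, adjusted p = 3.7e-10, edgeR quasi-likelihood F-test, adjusted after Benjamini and Hochberg, as for all adjusted p-values below). In this comparison 6 of the 7 members passed the threshold of 0.05, beside 74.6% of all genes tested.

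Uhrf1 (chromosome 17, 56303321 to 56323486, plus strand) reads hemimethylated CpG pairs and brings Dnmt1 to them. Its level was 613 and 587 CPM in BL6 PSC, 740 and 668 CPM in CAST PSC, and 913 and 600 CPM in CAS129 PSC. The BL6 MN libraries ran from 2.71 CPM through a median of 4.73 to 10 CPM, and it was 2.37 CPM in CAST MN, 7.21 and 6.68 CPM in 129 MN, 128, 134 and 55.6 CPM in CAS129 MN, and 2.73 CPM in 129CAS MN. The groups PSC and MN did not overlap, and CAS129 MN stood between the PSC libraries and the other MN libraries. Uhrf1 was 66.3-fold lower in MN over the 3 genotypes (log2 fold change -6.05 ± 0.59 SE, adjusted p = 6.3e-08). Within genotypes it was 110-fold lower in BL6, 335-fold in CAST and 7.47-fold in CAS129. In BL6 alone the MN level was 1.01% of the PSC level, against 15.0% for Dnmt1. In bulk RNA, fewer cells that hold a transcript and less of it per cell cannot be told apart, and RNA of PSC and MN was extracted with different kits, a difference that cannot be told apart from that of cell type.

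**Figure D1:**
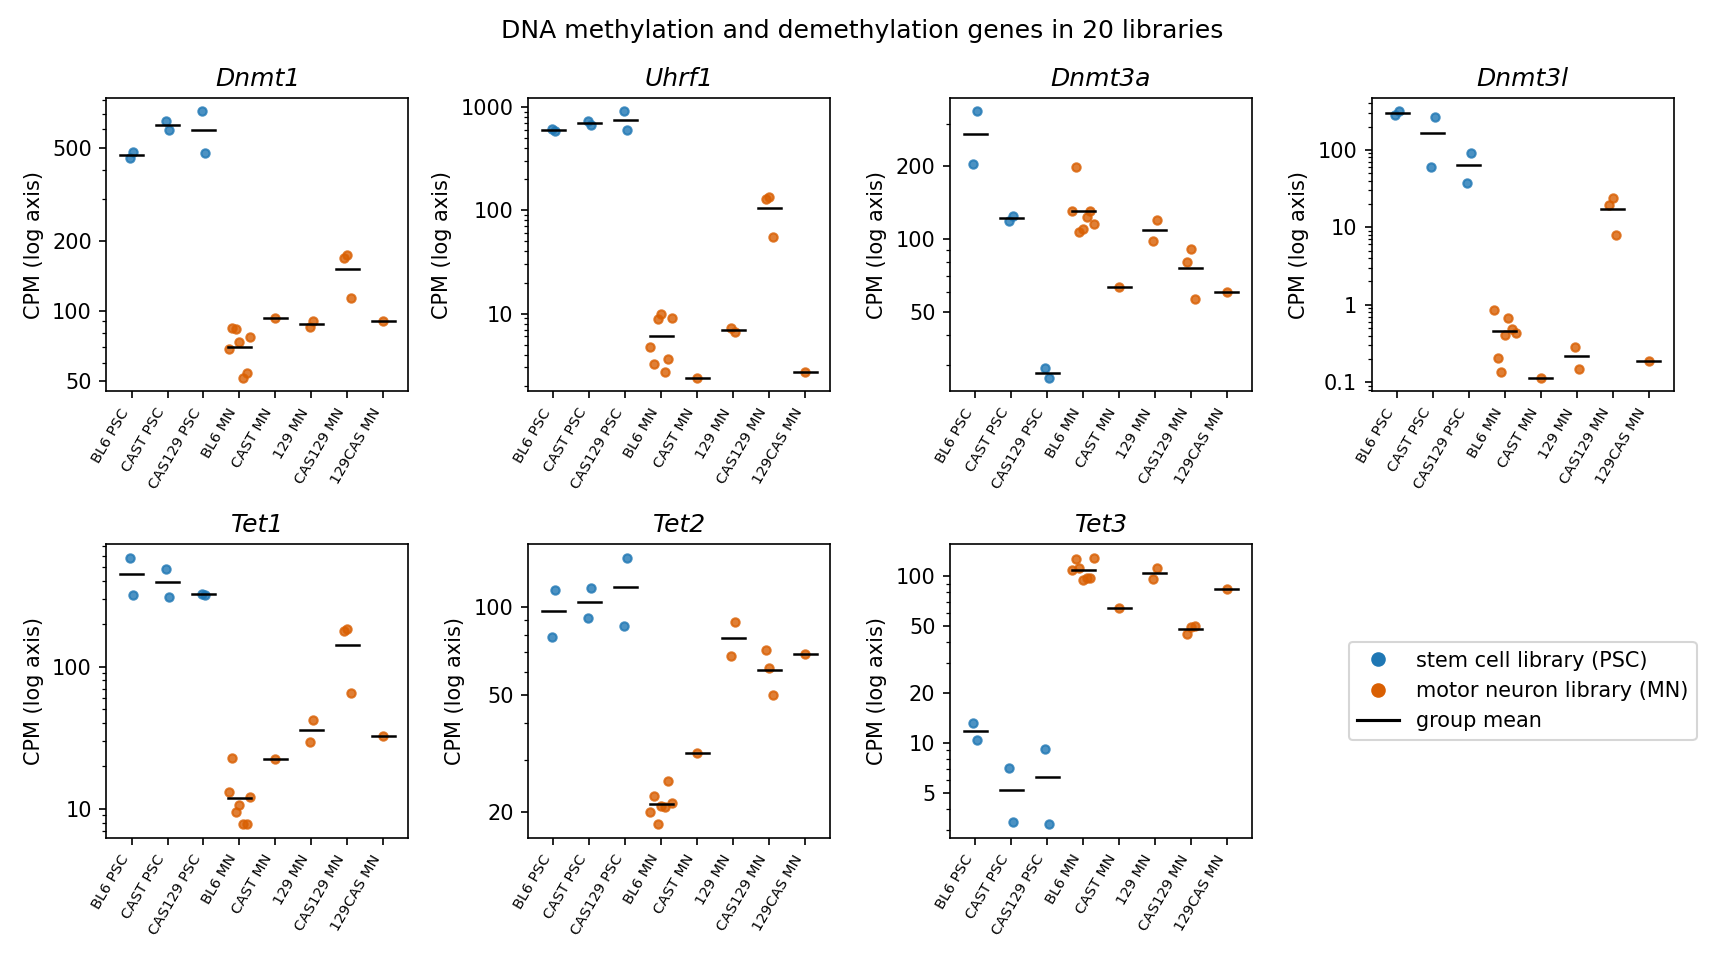
CPM on a log axis for 7 genes of DNA methylation and demethylation in each of 20 libraries (points; blue, PSC; orange, MN) with the mean of each group (line). Tet3 is higher in every MN library than in every PSC library; Dnmt1, Uhrf1, Dnmt3l and Tet1 are lower in every MN library than in every PSC library, and CAS129 MN is the MN group with the highest level of these 4 genes.

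Dnmt3a (chromosome 12, 3806007 to 3914443, plus strand) is a de novo methyltransferase that also acts outside CpG pairs in neurons. It was at 205 and 338 CPM in BL6 PSC, 119 and 125 CPM in CAST PSC, and 29.1 and 26.5 CPM in CAS129 PSC. Over BL6 MN its level went from 107 CPM through a median of 123 to 198 CPM, and it was 63.3 CPM in CAST MN, 97.7 and 120.0 CPM in 129 MN, 80.5, 90.8 and 56.3 CPM in CAS129 MN, and 60.1 CPM in 129CAS MN. The PSC groups did not overlap each other, and CAS129 PSC was the lowest of all 8 groups, at 192 and 155 counts a library. The MN groups spread over a narrower range, from 56.3 to 198 CPM.

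The change of Dnmt3a from PSC to MN accordingly had no single direction. It was lower in MN of BL6 (log2 fold change -1.18 ± 0.24 SE, adjusted p = 0.0003) and of CAST (-1.13 ± 0.41 SE, adjusted p = 0.028). It was higher in MN of CAS129 (1.37 ± 0.31 SE, adjusted p = 0.0014). The CAST call rested on a single MN library and was lost without CAST PSC replicate 2 (-1.05, adjusted p = 0.077) and with no filter on low counts (-0.95, adjusted p = 0.055). Over the 3 genotypes Dnmt3a did not pass the threshold (-0.56 ± 0.32 SE, adjusted p = 0.12); it passed when the CAS129 libraries were left out (-1.25, adjusted p = 0.00011), and also when a single one of its PSC libraries was left out, with -0.82 (adjusted p = 0.024) without replicate 1 and -0.83 (adjusted p = 0.018) without replicate 2.

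Dnmt3l (chromosome 10, 78041947 to 78063622, plus strand) is the catalytically inactive cofactor of the de novo enzymes. It was at 279 and 314 CPM in BL6 PSC, 59.7 and 268 CPM in CAST PSC, and 36.8 and 91.9 CPM in CAS129 PSC. The 7 BL6 MN libraries spanned 0.135 CPM through a median of 0.432 to 0.842 CPM, which is 27 counts in 7 libraries together. It had 1 count in CAST MN, 12 and 6 counts in 129 MN and 5 counts in 129CAS MN, but 118, 144 and 43 counts in CAS129 MN, or 19.3, 24.1 and 7.88 CPM. All PSC libraries were above all MN libraries, and all CAS129 MN libraries were above the other MN libraries.

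Mean Dnmt3l in BL6 was 652 times higher in PSC than in MN (95% exact Poisson interval of the MN counts 448 to 989, counting error only; adjusted p = 2.3e-10). In CAST the ratio was 1450, with an interval of 261 to 57400 because it rests on 1 count, and the adjusted p was 1.4e-05. In CAS129 it was 3.76 (3.36 to 4.22; log2 fold change -2.01 ± 0.54 SE, adjusted p = 0.0045), a call lost without CAS129 PSC replicate 2 (-1.38, adjusted p = 0.074). At its start Dnmt3l overlaps the oppositely transcribed Aire in 67 exonic bases, 2.24% of its exon length, and no source used here gives the strand setting of the counts. Aire was higher in the same PSC replicate as Dnmt3l, at 28.7 and 133 CPM in CAST PSC and 61.3 and 142 CPM in CAS129 PSC. In BL6 PSC it was at 62.9 and 151 CPM, where Dnmt3l differed little, at 279 and 314 CPM. The part of Aire in the Dnmt3l counts was not tested.

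Tet1 (chromosome 10, 62804570 to 62908996, minus strand) is the main TET enzyme of mouse stem cells. It was at 583 and 318 CPM in BL6 PSC, 481 and 306 CPM in CAST PSC, and 326 and 320 CPM in CAS129 PSC. Its BL6 MN values ran from 7.79 CPM through a median of 10.6 to 22.9 CPM, and it was 22.5 CPM in CAST MN, 29.6 and 42.4 CPM in 129 MN, 179, 184 and 65.1 CPM in CAS129 MN, and 32.4 CPM in 129CAS MN. The 3 PSC groups overlapped one another and lay above all MN libraries. Tet1 was 18.9-fold lower in MN over the 3 genotypes (log2 fold change -4.24 ± 0.51 SE, adjusted p = 7.8e-07). Within genotypes it was 40.1-fold lower in BL6, 19.6-fold in CAST and 2.39-fold in CAS129.

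Tet2 (chromosome 3, 133463679 to 133545139, minus strand) lacks the CXXC DNA-binding domain that its paralogs carry. It was at 78.7 and 114 CPM in BL6 PSC, 91.6 and 116 CPM in CAST PSC, and 86.0 and 147 CPM in CAS129 PSC. In BL6 MN the level ranged from 18.1 CPM through a median of 20.9 to 25.4 CPM, and it was 31.8 CPM in CAST MN, 67.8 and 88.5 CPM in 129 MN, 71.0, 61.8 and 49.9 CPM in CAS129 MN, and 68.8 CPM in 129CAS MN. BL6 MN and CAST MN were the lowest groups, while 129 MN reached into the range of BL6 PSC. Over the 3 genotypes Tet2 was 3.81-fold lower in MN (log2 fold change -1.93 ± 0.18 SE, adjusted p = 4.8e-08). By genotype this fold was 4.95 in BL6, 3.7 in CAST and 2.05 in CAS129.

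Tet3 (chromosome 6, 83362373 to 83459084, minus strand) is the TET enzyme known from the oocyte and from neurons. It was at 13.2 and 10.4 CPM in BL6 PSC, 7.08 and 3.36 CPM in CAST PSC, and 9.23 and 3.24 CPM in CAS129 PSC, which is 19 to 181 counts a library. In BL6 MN it ranged from 94.4 CPM through a median of 109 to 129 CPM, and it was 64.5 CPM in CAST MN, 96.6 and 111 CPM in 129 MN, 44.8, 49.4 and 50.1 CPM in CAS129 MN, and 84.1 CPM in 129CAS MN. No MN library overlapped a PSC library, and CAS129 MN was the lowest MN group. Tet3 was the 1 member that rose over the 3 genotypes, by 7.78-fold (log2 fold change 2.96 ± 0.22 SE, adjusted p = 3.3e-09), in a comparison where 36.1% of genes tested were called higher. Its rise passed the test in BL6 (3.09 ± 0.30 SE), CAST (3.45 ± 0.38 SE) and CAS129 (2.87 ± 0.34 SE), with adjusted p-values of 1.3e-07, 1.7e-06 and 2.3e-06.

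**Figure D2:**
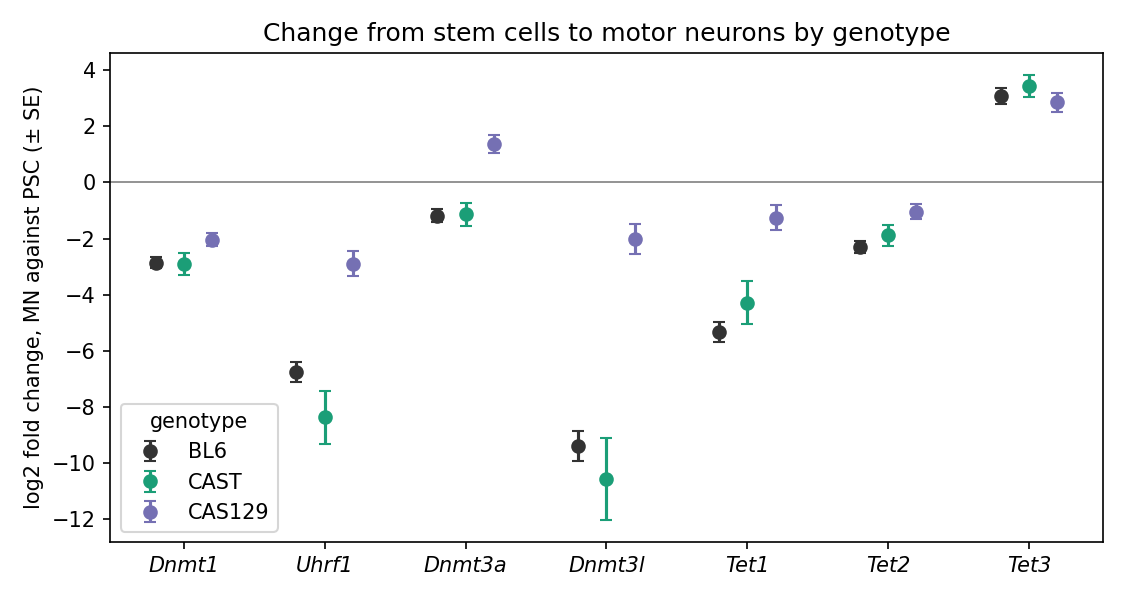
Log2 fold change of MN against PSC (points) with its standard error (bars) for each gene in BL6, CAST and CAS129, from edgeR. Tet3 is above 0 in all 3 genotypes; Dnmt3a is below 0 in BL6 and CAST (-1.18 and -1.13) and above it in CAS129 (1.37).

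Within the genotypes, all 7 members passed the threshold in BL6 (70.2% of all genes tested), in CAST (56.0%) and in CAS129 (54.4%). The change was tested for a difference between genotypes in 1 fit over all 8 groups. CAST and BL6 had none among the members: none of 7 passed, none had an unadjusted p under 0.05 in edgeR, and DESeq2 also called none, beside 7.26% of all genes. The widest standard error of these differences was 2.19 for Dnmt3l, and the single CAST MN library limits this test.

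CAS129 and BL6 differed in 5 of the 7 members, beside 18.2% of all genes. All 5 were shifted upward in CAS129, beside 13.7% of all genes called in that direction, and the median difference over all genes was itself 0.26. Of the genes called in this test 75.1% were higher in CAS129, but 53.0% with DESeq2's size factors in edgeR and 50.7% with DESeq2. The difference in log2 fold change was 7.40 ± 0.87 (SE) for Dnmt3l, 4.07 ± 0.63 for Tet1, 3.88 ± 0.61 for Uhrf1, 2.55 ± 0.40 for Dnmt3a and 1.27 ± 0.35 for Tet2. Their adjusted p-values were 4.2e-05, 0.00044, 0.00048, 0.00047 and 0.02. The Tet2 call was lost with DESeq2's size factors in edgeR (0.99, adjusted p = 0.06), without BL6 PSC replicate 2 (0.85, adjusted p = 0.12) and without CAS129 PSC replicate 1 (0.83, adjusted p = 0.12). It was also lost without CAS129 MN replicate 1 (1.04, adjusted p = 0.066) or replicate 2 (1.15, adjusted p = 0.051). Dnmt1 (0.81 ± 0.32 SE, adjusted p = 0.092) and Tet3 (-0.22 ± 0.40 SE, adjusted p = 0.81) did not pass.

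The summed stem cell markers and cell cycle genes also kept a larger part of their PSC level in CAS129 MN than in BL6 MN. In CAS129 the level in MN was 14.0% of that in PSC for Uhrf1, 25.4% for Dnmt1, 26.6% for Dnmt3l, 44.2% for Tet1 and 52.2% for Tet2. The summed stem cell markers stood at 23.4% (12% to 30.1% over the 3 MN libraries) and the summed cell cycle genes at 20.8%. Single markers departed from their sum: Lin28a, an RNA-binding protein of stem cells, was at 251% (139% to 329%) and L1td1 at 56.8% (24.9% to 77.6%), both named after their values were seen. In CAS129 MN against its PSC, 13 of the 16 stem cell markers were called lower and 1 higher. Of the 15846 genes tested, 3794 were called lower and 4824 higher. In BL6 the same sums stood at 3.03% and 4.31%, Dnmt3l at 0.153% and Tet1 at 2.66%.

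The 3 CAS129 MN libraries also differed from each other in those sums. Replicates 1, 2 and 3 had stem cell marker sums of 1670, 1790 and 714 CPM and cell cycle sums of 1530, 1730 and 860 CPM. Dnmt1, Uhrf1, Dnmt3l, Tet1 and Tet2 were all lowest in replicate 3, and so was Dnmt3a at 56.3 CPM, although its level in CAS129 MN was 273% of that in PSC (203% to 327% over the MN libraries). Tet3 was at 50.1 CPM in replicate 3, against 44.8 and 49.4 CPM. All 16 stem cell markers had counts in CAS129 MN; of the defining ones, Pou5f1 was at 64.5 to 172 CPM there, at 0.409 to 1.79 CPM in BL6 MN and at 0 in CAST MN and 129CAS MN. The part of stem cell transcripts in the CAS129 values was not tested.

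**Figure D3:**
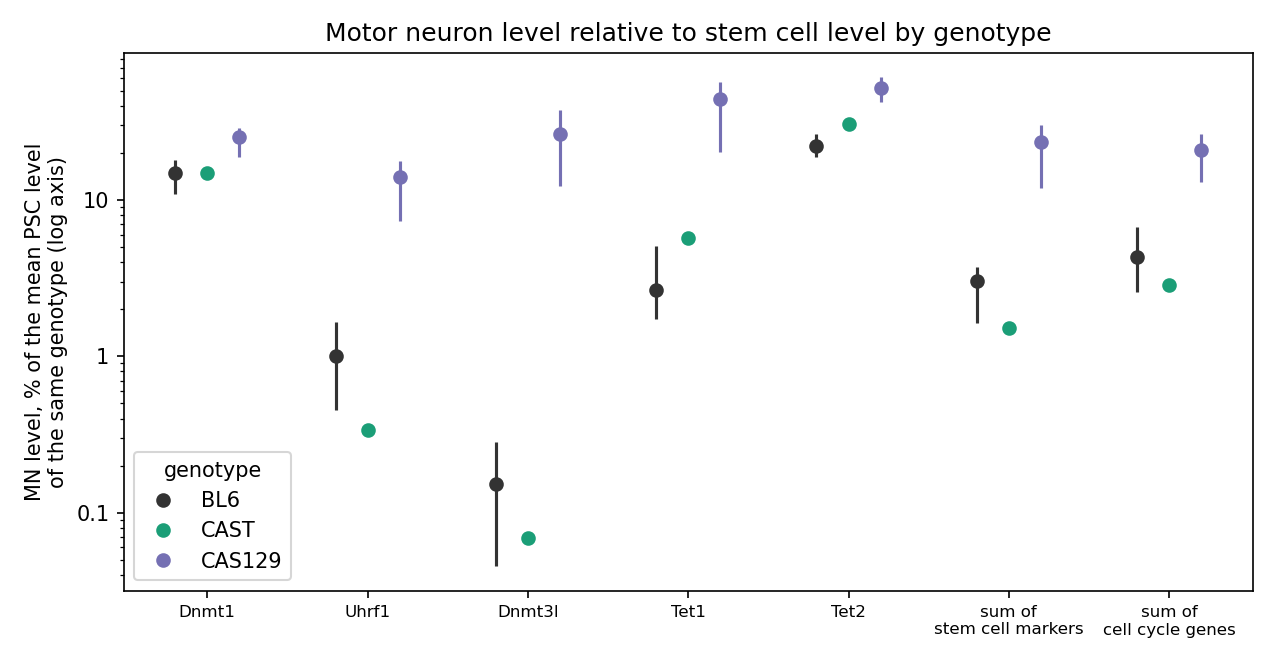
Mean MN level as a percent of the mean PSC level of the same genotype on a log axis (points), with the lowest and highest MN library (lines; CAST has 1 MN library), for 5 members and 2 marker sums. In CAS129 the members lie between 14.0% and 52.2% and the stem cell marker sum at 23.4%; in BL6 that sum is at 3.03%.

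Within stem cells, Dnmt3a was the member in which all 3 genotypes lay apart. BL6 PSC also lay apart from CAST PSC and CAS129 PSC in Dnmt3l and Tet3, and from CAST PSC in Dnmt1 and Uhrf1. These other differences did not pass in the main fit. Dnmt3a in CAS129 PSC was 8.94-fold below BL6 PSC (log2 fold change -3.16 ± 0.36 SE, adjusted p = 0.00038) and 4.35-fold below CAST PSC (-2.12 ± 0.35 SE, adjusted p = 0.0036). Dnmt3a was the 1 member of 7 that passed in each of these comparisons, beside 25.8% and 14.0% of all genes. Both calls held without any 1 library of the groups compared.

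CAST and BL6 PSC gave no call among the 7 members in edgeR, beside 10.5% of all genes, although 1 had an unadjusted p under 0.05 and DESeq2 called 1. Both were Dnmt3a (-1.04 ± 0.33 SE, edgeR's adjusted p = 0.087, DESeq2's adjusted p = 0.026), which also passed with no filter on low counts (adjusted p = 0.028) and without BL6 PSC replicate 1 (-1.40, adjusted p = 0.017). Dnmt3l had a log2 difference of -2.03 ± 0.71 (SE) between CAS129 and BL6 PSC and did not pass (adjusted p = 0.068). It passed with no filter (adjusted p = 3.2e-07), with DESeq2 (0.015), with only the compared groups in the fit (0.019) and with the replicate number as a block (0.0051). Its replicates were far apart: the higher was 4.49 times the lower in CAST PSC and 2.50 times in CAS129 PSC, against 1.12 in BL6 PSC. Tet3 too was uneven, with ratios of 2.11 in CAST PSC and 2.85 in CAS129 PSC, whereas those of Dnmt1 and Uhrf1 were at most 1.52.

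Regulators that act around these enzymes also differed between the stem cells. Prdm14, a transcriptional repressor that limits the de novo enzymes in naive stem cells, was at 16.4 and 33.7 CPM in BL6 PSC, 99.0 and 123 CPM in CAST PSC, and 156 and 164 CPM in CAS129 PSC. Dppa3, which keeps Uhrf1 from chromatin, was at 30.9 and 25.6 CPM in BL6 PSC, 153 and 111 CPM in CAST PSC, and 213 and 160 CPM in CAS129 PSC. Both genes were higher in CAST and in CAS129 than in BL6, without overlap. The log2 differences from BL6 in CAST were 2.26 ± 0.41 (SE; adjusted p = 0.012) for Prdm14 and 2.35 ± 0.30 (adjusted p = 0.0026) for Dppa3. In CAS129 that of Dppa3 was 2.86 ± 0.31 (adjusted p = 0.00027) and that of Prdm14, named here after its values were seen, 2.81 ± 0.42 (adjusted p = 0.0017). They were the 2 genes called higher of 14 tested partners of the maintenance and de novo enzymes in both comparisons, beside 5.74% of all genes called higher in CAST and 8.72% in CAS129. In so short a list that count is no result about the partners as a group.

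Zfp57, which protects imprinted methylation, was lower in CAS129 PSC than in BL6 PSC, at 71.6 and 51.6 CPM against 233 and 311 CPM (log2 fold change -2.01 ± 0.31 SE, adjusted p = 0.0021). It was low in hybrid MN too, at 26.0 to 28.5 CPM in CAS129 MN and 9.63 CPM in 129CAS MN. All BL6, CAST and 129 MN libraries were at 33.7 CPM or more. The part of hybrid counting in these values was not tested. The other partner called lower in CAS129 PSC than in BL6 PSC was Pcna, the replication clamp. It had 0 counts in all hybrid libraries and 208 to 409 CPM in BL6 and CAST PSC. Ahcy, which clears the product of methyl transfer, likewise had 0 counts in the hybrids and 404 to 540 CPM in BL6 and CAST PSC. No fold is given for either, and calls that rest on such zeros also stand in the counts of CAS129 below.

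Germline genes known to be silenced by promoter methylation were described from a list of 16, all tested; methylation itself was not measured. In CAST against BL6 PSC 3 were called higher, beside 5.74% of all genes, and the median log2 difference was 1.87 against 0.01 over all genes. They were Dazl, an RNA-binding protein of germ cells (3.20 and 14.8 CPM in BL6, 333 and 700.0 CPM in CAST; 6.01 ± 0.89 SE, adjusted p = 0.0054), Tex19.1 (1.86 ± 0.41 SE, adjusted p = 0.024) and Stk31 (4.01 ± 0.55 SE, adjusted p = 0.0035). In CAS129 against BL6 PSC 3 were called higher, beside 8.72% of all genes, and 2 lower, beside 2350 of 13795 genes tested. The median was 0.48. Dazl was among those higher, at 84.9 and 237 CPM (4.37 ± 0.83 SE, adjusted p = 0.006), as was Rpl10l (2.76 ± 0.36 SE, adjusted p = 0.00076). Mov10l1 was among those lower (-5.09 ± 0.89 SE, adjusted p = 0.004).

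**Figure D4:**
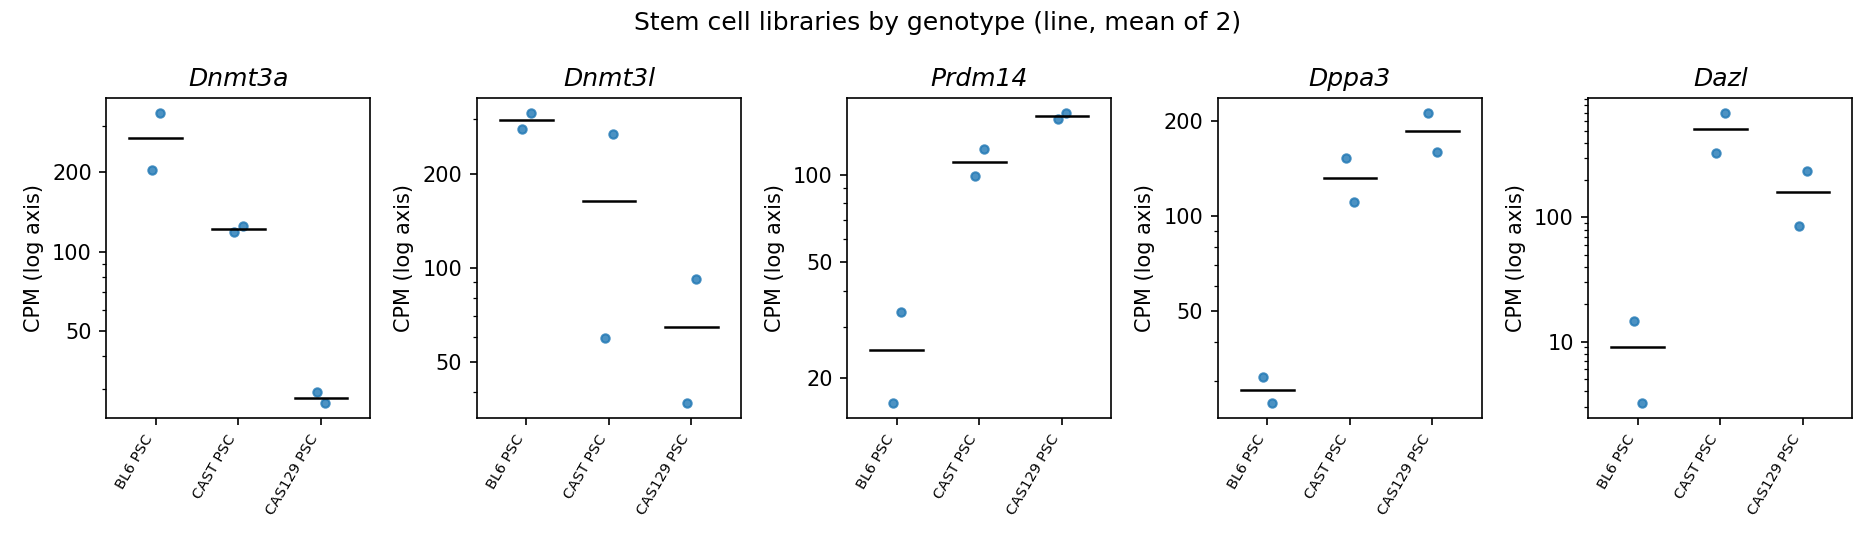
CPM on a log axis in the 2 PSC libraries of each genotype (points) with their mean (line). Dnmt3a is highest in BL6 and lowest in CAS129, at 29.1 and 26.5 CPM; Prdm14, Dppa3 and Dazl are lowest in BL6.

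Levels of different genes were set side by side only as CPM per kilobase of exon (exon lengths of all annotated isoforms merged, 2.99 kb for Dnmt3l to 16.87 kb for Tet2), a scale that understates genes with long, little-used exons. In BL6 PSC the order of mean levels per kilobase was Uhrf1 (141), Dnmt3l (99.2), Dnmt1 (63.4), Tet1 (29.1), Dnmt3a (16.3), Tet2 (5.71) and Tet3 (0.706). In BL6 MN it was Dnmt1 (9.53), Dnmt3a (7.84), Tet3 (6.54), Uhrf1 (1.42), Tet2 (1.26), Tet1 (0.774) and Dnmt3l (0.152). Tet3 was thus last of the 7 in BL6 PSC and in the third place in BL6 MN. It came next after Dnmt1 in CAST MN (3.86) and 129CAS MN (5.04). In CAS129 MN Uhrf1 (24.8) and Dnmt1 (20.5) led on this scale, followed by Tet1 (9.22), and Tet3 (2.88) was last.

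The make-up of the TET family turned over between the cell types. Per kilobase, Tet1 made up 80.5% ± 9.71 (SD, n = 2) of TET transcripts in BL6 PSC, 78.9% ± 7.40 (n = 2) in CAST PSC and 74.4% ± 6.36 (n = 2) in CAS129 PSC. Tet3 made up 2.03%, 0.947% and 1.36% there. In BL6 MN Tet3 held 76.3% ± 2.56 (SD, n = 7) and Tet1 8.81% ± 2.71.

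The other MN groups had more even TET mixtures. Tet3 held 53.6% in CAST MN, 47.4% ± 2.73 (n = 2) in 129 MN and 44.9% in 129CAS MN, and Tet2 held 26.2%, 35.0% and 36.4% of the same sums. In CAS129 MN Tet1 averaged 56.1% ± 12.7 (SD, n = 3) and Tet3 20% ± 8.25, but the libraries were unequal. Tet1 held 62.6% and 64.3% in replicates 1 and 2, which had the higher stem cell marker sums, and 41.4% in replicate 3, where Tet3 held 29.5% and Tet2 29.1%. The family sum per kilobase was 35.6 ± 10.7, 31.9 ± 7.14 and 28.2 ± 2.05 in PSC of BL6, CAST and CAS129. It was 8.58 ± 1.11 in BL6 MN, 7.20 in CAST MN, 13.2 ± 2.08 in 129 MN, 15.7 ± 4.81 in CAS129 MN and 11.2 in 129CAS MN, and no MN library, at 18.5 or less, reached a PSC library, at 26.7 or more.

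**Figure D5:**
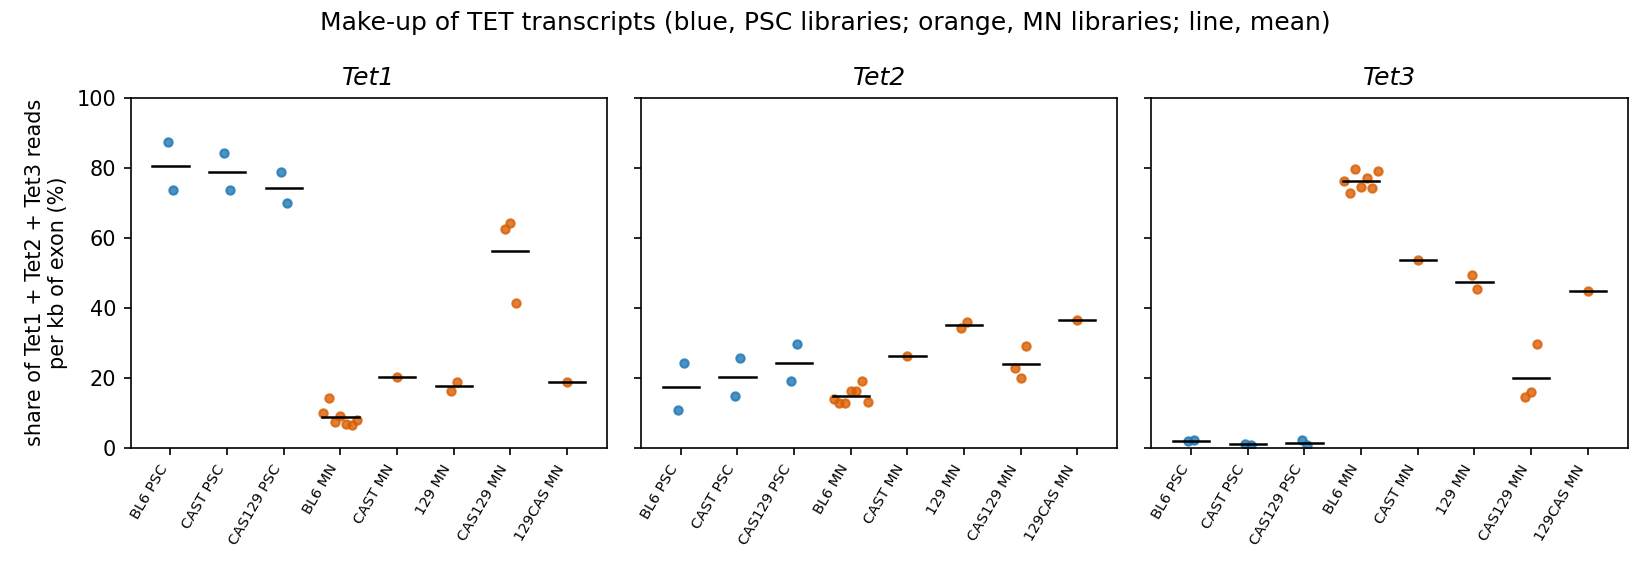
Share of Tet1, Tet2 and Tet3 in the sum of the 3 genes per kilobase of exon, in percent, for each library (points; blue, PSC; orange, MN) with the group mean (line). Tet1 leads in PSC and in CAS129 MN (56.1%), and Tet3 in BL6 MN (76.3%).

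Among motor neurons, 129 differed from BL6 in Tet2 and Tet1, 2 of the 7 members, beside 36.4% of all genes. Tet2 was 3.58-fold higher in 129 MN (log2 fold change 1.84 ± 0.15 SE, adjusted p = 9.4e-07), with no overlap between 67.8 to 88.5 CPM and 18.1 to 25.4 CPM. Tet1 was 2.92-fold higher (1.54 ± 0.39 SE, adjusted p = 0.0073), a call lost without 129 MN replicate 2 (1.27, adjusted p = 0.11). With the replicate number as a block Dnmt3a also passed, as lower in 129 MN (-0.62 ± 0.17 SE, adjusted p = 0.035). Stem cell markers summed to 157 and 159 CPM in 129 MN, within the BL6 MN range of 107 to 244 CPM, and Pou5f1 was at 0.0468 and 0.124 CPM. Endoderm and trophoblast markers, of which all 8 had counts, summed to 853 and 1260 CPM in 129 MN and 116 to 421 CPM in BL6 MN. Mesenchyme and fibroblast markers summed to 6530 and 10600 CPM against 15000 to 34100 CPM, without overlap. Of these markers 6 of 10 were called lower in 129 MN, beside 2680 of 14837 genes tested. Of 10 motor neuron markers 4 were called lower and 1 higher, beside 2680 and 2717 of 14837 genes. Their sums were 745 and 1030 CPM against 710 to 1990 CPM. The 129 libraries were also the deepest of all; the part of markers or depth in the Tet2 and Tet1 values was not tested.

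CAS129 MN differed from BL6 MN in all 7 members, beside 59.5% of all genes. Dnmt3l (log2 fold change 5.23 ± 0.44 SE), Uhrf1 (4.20 ± 0.38), Tet1 (3.61 ± 0.34), Tet2 (1.56 ± 0.14) and Dnmt1 (1.15 ± 0.17) were higher. Tet3 (-1.15 ± 0.13 SE, adjusted p = 6.9e-06) and Dnmt3a (-0.74 ± 0.21 SE, adjusted p = 0.009) were lower. The Dnmt3a call was lost without CAS129 MN replicate 3 (-0.56, adjusted p = 0.057). The stem cell marker sums given above apply to these values. Neuronal markers were lower too: all 10 pan-neuronal markers were called lower, beside 4826 of 14837 genes tested, with a median log2 difference of -1.93. Their sums were 859 to 1140 CPM in CAS129 MN and 3250 to 9200 CPM in BL6 MN, without overlap. Map2 among them had 0 counts in the hybrids. Of 10 motor neuron markers, 7 were called lower and 1 higher, beside 4826 and 4008 of 14837 genes, with a median of -1.35. The part of these markers in the Tet3 and Dnmt3a values was not tested.

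Against 129 MN, CAS129 MN were higher in Dnmt3l (6.33 ± 0.72 SE), Uhrf1 (4.00 ± 0.59), Tet1 (2.06 ± 0.50) and Dnmt1 (0.86 ± 0.24) and lower in Tet3 (-1.04 ± 0.16), 5 of 7 beside 56.7% of all genes. Tet2, at 49.9 to 71.0 CPM against 67.8 and 88.5 CPM, did not pass (-0.29 ± 0.19 SE, adjusted p = 0.21). The Dnmt1 call was lost without 129 MN replicate 1 (0.84, adjusted p = 0.052) or replicate 2 (0.88, adjusted p = 0.051).

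The single 129CAS MN library, from the other hybrid name, differed from CAS129 MN in 4 of 7 members, beside 30.3% of all genes. It was lower in Dnmt3l (-6.51 ± 1.03 SE, adjusted p = 0.00071), Uhrf1 (-5.33 ± 0.89 SE, adjusted p = 0.0011) and Tet1 (-2.20 ± 0.68 SE, adjusted p = 0.027) and higher in Tet3 (0.75 ± 0.19 SE, adjusted p = 0.012). The Tet1 call was lost without CAS129 MN replicate 1 (-2.01, adjusted p = 0.063) or replicate 2 (-1.97, adjusted p = 0.063). Its stem cell marker sum was 119 CPM with Pou5f1 at 0, and its differences from CAS129 MN in Dnmt3a (-0.40 ± 0.35 SE, adjusted p = 0.42) and Tet2 (0.12 ± 0.24 SE, adjusted p = 0.78) did not pass. Nor did Dnmt1 (-0.80 ± 0.31 SE, adjusted p = 0.068), which passed with DESeq2 (-0.82, adjusted p = 0.043), with only the compared groups in the fit (-0.75, adjusted p = 0.023) and without CAS129 MN replicate 3 (-0.99, adjusted p = 0.026). Pan-neuronal markers summed to 3470 CPM in 129CAS MN and mesenchyme markers to 9110 CPM, against 22600 to 26200 CPM for the latter in CAS129 MN; their part was not tested.

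CAST MN differed from BL6 MN in 1 of 7 members, Tet3, beside 12.3% of all genes (-0.80 ± 0.20 SE, adjusted p = 0.02). That call was lost with only the compared groups in the fit (-0.79, adjusted p = 0.077) and with the replicate number as a block (-0.79, adjusted p = 0.075). Dnmt3a, at 63.3 CPM below all 7 BL6 MN libraries, did not pass (-1.08 ± 0.35 SE, adjusted p = 0.06). It passed with DESeq2 (-1.05, adjusted p = 0.018), with the block (-1.22, adjusted p = 0.032) and without BL6 MN replicate 2 (-0.91, adjusted p = 0.012).

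Genes listed as readers of methylated DNA moved in both directions. Of 10 tested, 6 were called higher in MN over the 3 genotypes, beside 36.1% of all genes, and 3 lower, beside 38.5%. Their median log2 fold change was 0.94 and that of all genes -0.05. By genotype 6 were called higher in BL6, 4 in CAST and 5 in CAS129, beside 5699, 4806 and 4824 of 15846 genes tested. Called lower were 3, 3 and 2, beside 5424, 4069 and 3794 genes. In so short a list these counts are no result about the readers as a group. Some, such as Mbd3 and Mbd6, are listed by family name and need not bind methylated DNA. Zbtb4, a zinc finger reader, rose by 3.71 ± 0.26 (SE, log2; adjusted p = 1.5e-09), and Zbtb38, a related zinc finger reader, by 1.73 ± 0.19 (adjusted p = 2.6e-07). Mbd3, a subunit of the NuRD complex, fell by 0.98 on the log2 scale (SE 0.18, adjusted p = 8e-05), and Mbd6 fell by 1.68 (SE 0.21, adjusted p = 1e-06).

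Most partners of the maintenance and de novo enzymes were lower in MN over the 3 genotypes. Of 14 tested, 11 were called lower and none higher, beside 38.5% and 36.1% of all genes, with a median of -2.17. In CAS129 alone 7 were called lower, beside 3794 of 15846 genes tested. Trim28, the corepressor recruited by Zfp57 and related zinc finger proteins, fell by 2.57 (SE 0.22, adjusted p = 1.7e-08) and Usp7, a deubiquitinase that binds Dnmt1 and Uhrf1, by 1.99 (SE 0.12, adjusted p = 3.4e-10). Ehmt2, a histone methyltransferase, fell by 0.91 (SE 0.15, adjusted p = 4.1e-05). The fall of Pcna by 3.33 (SE 0.20, adjusted p = 4e-09) rests on BL6 and CAST, as its hybrid counts were 0. In the difference between CAS129 and BL6, 8 of the 14 were called higher, beside 13.7% of all genes; Pcna was not among them.

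Of 12 tested genes of base excision, which finishes active demethylation, 9 were called lower and 1 higher, beside 38.5% and 36.1% of all genes. Their median was -1.56. Parp1, a sensor of strand breaks, fell by 2.95 (SE 0.19, adjusted p = 6.6e-10), Xrcc1, a repair scaffold, by 2.51 (SE 0.15, adjusted p = 3.2e-10) and Apex1, the abasic site endonuclease, by 1.79 (SE 0.18, adjusted p = 8.1e-08). The gene that rose was Gadd45g, a stress-induced cofactor (1.45 ± 0.27 SE, adjusted p = 9.3e-05).

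Of 12 genes listed for methyl donor and TET cofactor supply, 8 were called lower and 1 higher, with a median of -1.17. The shares over all genes were 38.5% and 36.1%. Mthfd1, of folate metabolism, fell by 3.21 (SE 0.31, adjusted p = 7.1e-08) and Shmt2, the mitochondrial serine hydroxymethyltransferase, by 2.22 (SE 0.19, adjusted p = 1.7e-08). Ogt, the O-GlcNAc transferase that binds TET proteins, fell by 1.01 (SE 0.16, adjusted p = 1.5e-05). It supplies neither of these compounds and was counted in this list as well as in the next. Ahcy fell by 2.85 (SE 0.17, adjusted p = 3.8e-09) on its BL6 and CAST counts. Of 8 CXXC and TET partners, among them Ogt again, 2 were called higher and 3 lower, beside 36.1% and 38.5% of all genes. Their median was 0.04, and these counts are no result about the partners as a group. Wt1, a transcription factor that binds Tet2, rose by 3.93 (SE 0.61, adjusted p = 1.6e-05), and Kdm2b, a CXXC protein, fell by 1.32 (SE 0.13, adjusted p = 1e-07). The germline list had 12 of 16 called lower and 1 higher, beside the same shares of 38.5% and 36.1%, with a median of -2.58.

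The genes whose levels followed each member most closely were found by Pearson's r of log2(CPM + 1) over the 20 libraries, a description in which the split between PSC and MN weighs most. For Uhrf1 they were Mcm2 (0.996), Fancd2 (0.995) and Mcm3 (0.995), and for Dnmt1 Pelp1 (0.994), Nfatc2ip (0.99) and Parp1 (0.986). For Tet1 they were Brca2 (0.983), Cecr2 (0.981) and Sall4 (0.979), and for Dnmt3l Eras (0.987), Utf1 (0.977) and Dctpp1 (0.976). Tet3 was closest to Kif3b (0.988), Arhgef12 (0.986) and Fgd5 (0.985), and Tet2 to Bend4 (0.953), AU018091 (0.953) and Gm17491 (0.951).

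Dnmt3a had the loosest match, with Sfrp2 (0.914), Dph3 (0.881) and Rbx1 (0.872). Among the members themselves r was 0.96 between Dnmt1 and Uhrf1, -0.95 between Dnmt1 and Tet3 and -0.87 between Tet1 and Tet3. For Dnmt3a it lay between -0.23 and 0.20 with every other member. All of these share the same libraries and scaling.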

How the data were processed

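Gene read counts were used as the authors deposited them, raw whole numbers. Per the submitters' processing notes the reads were aligned with STAR to GRCm38; the counting tool, its annotation and its strand setting are unstated there. Of 28 count columns 20 carried the name of a sample; 8 others were left unused, 7 samples without a column were not analysed here. Groups follow the sample titles. Nothing states that replicates were separate cultures, so the p-values cover the spread between samples, possibly a technical one. Replicates differed by more than sampling noise (28 pairs, chi-square at least 3.02 per degree of freedom).

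Names, positions and exon lengths came from GENCODE M21 on GRCm38 (27030 of 27071 identifiers matched). CPM were computed with TMM factors. Tests used edgeR 4.0.16 in R 4.3.3 (glmQLFit, glmQLFTest, 2-sided, Benjamini-Hochberg over all genes tested, threshold 0.05) on genes with at least 1 CPM in 2 libraries of a fit. MN was set against PSC in a 17-library fit with a genotype term and, by genotype, in a fit of all 20 libraries; genotype comparisons used the 6 PSC or the 14 MN libraries. A group of 1 library was assumed to vary like the others. The SE is |log2 fold change| over the root of F. Alternatives were DESeq2 1.42.0, its size factors in edgeR (RLE), no filter, a replicate block, only the compared groups, and 51 refits without 1 library; leaving out CAS129 was added after seeing the data. Scripts were tested on simulated data. For CAST against BL6 PSC, 0.0% of simulated log2 changes of 1 and 40.4% of those of 2 were recovered. Members not called there may thus still differ. Genes, lists and tests were chosen with earlier results of these data known. Named genes are the members, the called genes of highest mean CPM in a list (up to 4 over 3 genotypes, up to 3 elsewhere) and the 3 most alike. Nsd1, Tdg, Dppa5a, Mcm5, Ccnb1 and Sox9 of the lists were not analysed here. One gene of the list of methyl-CpG readers is not reported here and is in no count of it.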

Additional observations from a re-analysis of the deposited data

Results flagged for a closer look

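Among the 7 BL6 MN libraries, 2 members had a library far from the others, both in replicate 2: Dnmt3a at 198 CPM, above 107 to 130 CPM in the rest, and Tet1 at 22.9 CPM, above 13.1 CPM. Of 7 such tests, chance flags about 1 in 20. Replicate 2 also had the lowest stem cell marker sum of that group, 107 CPM, and the lowest cell cycle sum, 137 CPM; their part in these values was not tested. By edgeR's test of the difference, the PSC-to-MN change was not alike in CAS129 and BL6 for Dnmt3l (7.40), Tet1 (4.07), Uhrf1 (3.88), Dnmt3a (2.55) and Tet2 (1.27, log2 scale).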

How the results depend on the processing

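Every call of a member in BL6, and those of Dnmt1, Uhrf1, Dnmt3l, Tet1, Tet2 and Tet3 over the 3 genotypes, kept direction and threshold under every alternative run. The tests of members with 1 library left out were counted together with the test over the 3 genotypes without all CAS129 libraries. Of these, 694 stayed the same, 12 lost and 6 gained a call and 23, none of them called, changed sign. The Tet3 difference between CAS129 and BL6 was among these, from -0.92 to 0.60 without 1 library, as was Tet2 in 129CAS against CAS129 MN, from -0.02 to 0.24. The replicate numbers do not show a pairing throughout (correlations of deviations -0.12 to 0.43). In PSC these were 0.31 between BL6 and CAST, 0.36 between CAST and CAS129 and 0.03 between BL6 and CAS129. An effect shared by PSC replicates of the same number was not tested, and the block is only an alternative. In PSC the block raised the genes called, from 1455 to 2161 for CAST against BL6. It raised them from 3553 to 4312 for CAS129 against BL6 and from 1933 to 2426 for CAS129 against CAST. With the replicate block, genes called fell from 2883 to 1886 for the difference of CAS129 and BL6, from 1151 to 500 for that of CAST and BL6 and from 1831 to 766 for CAST against BL6 MN, and members called in CAS129 against BL6 PSC went from 1 to 2 and in 129 against BL6 MN from 2 to 3.

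DESeq2 called 1955 genes for the difference of CAST and BL6, 2222 genes and 1 member in CAST against BL6 PSC, 2 members in CAS129 against BL6 PSC and 2 in CAST against BL6 MN. With no filter there were 2682 genes and 1 member in CAST against BL6 PSC, and 2 members in each CAS129 PSC comparison. With only the compared groups there were 577 genes for the difference of CAST and BL6, 2 members in CAS129 against BL6 PSC, and 895 genes and 0 members in CAST against BL6 MN. Scaling with RLE factors or DESeq2 moved the share of higher calls in the difference of CAS129 and BL6 from 75.1% to 53.0% and 50.7%.

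With 1 library left out, genes called for that difference ranged from 1409 (without CAS129 PSC replicate 2) to 3664 (without BL6 PSC replicate 1), and for CAST and BL6 from 570 (without CAST PSC replicate 1) to 2567 (without BL6 PSC replicate 1). In PSC the range was 316 to 2105 for CAST against BL6 (0 to 1 member), 2132 to 3658 for CAS129 against BL6 and 1112 to 1320 for CAS129 against CAST. In MN it was 2764 to 6324 for 129 against BL6 (1 to 2 members) and 1550 to 3805 for CAST against BL6 (1 to 2 members), the highest of both without BL6 MN replicate 2. CAST MN, a single library, could not be left out of its own comparisons. The cause of these movements was not tested. Depth limits Dnmt3l in MN, where libraries outside CAS129 held 1 to 12 counts, and Tet3 in PSC, at 19 to 181 counts.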
